A study of Mus musculus with 2 samples.

Results

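The dividing cancer cells of RM-1 mouse prostate tumors were described here as 2434 cells that carried mRNAs of cell division, 1235 from a vehicle-treated tumor (control) and 1199 from an enzalutamide (ENZ)-treated tumor. They were taken from 7945 cancer cells, and these from 10597 barcodes with at least 8000 unique molecular identifiers (UMIs, the tags that count single mRNA molecules). A barcode entered the cancer cell gate when at most 20% of its UMIs came from mitochondrial genes, Ptprc (the leukocyte antigen CD45) had at most 1 UMI, the sum of Cacna2d1, Rbfox2, Kif21a and Rhox5 reached at least 5 UMIs, and the sum of the fibroblast genes Dcn, Lum and Dpt stayed below 10 UMIs. A gated cell was called dividing when Top2a, Mki67, Cenpf and Ube2c together had at least 10 UMIs, and the remaining 5511 cells with fewer, 2503 from the control and 3008 from the ENZ library, are called the other cancer cells. No barcode of the dividing cells occurred in both libraries (0 shared, and 7 shared among all gated cells).

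RM-1 is a cultured line of mouse prostate cancer cells driven by Ras and Myc, which grows as a tumor in immunocompetent mice. The cells had been injected into the prostates of C57BL/6 mice, and both samples carry the genotype label WT. ENZ is an antiandrogen drug, and the study used RM-1 as a model that is resistant to it. There was 1 mouse and 1 library for each treatment, so no test between treatments was possible, and treatment, mouse and library cannot be told apart. Intervals are 95% intervals that cover counting error only. The labels do not state the dose, the duration or the age of the mice for the sequenced tumors, and the study's methods describe an enrichment of immune cells with CD45 staining during sorting, so the numbers of cells per class depend on the sort.

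A dividing cell copies its DNA in S phase and then separates the copies in mitosis, with a gap phase (G2) in between. S phase genes (helicase subunits, polymerases and enzymes of nucleotide supply) are switched on by E2F factors once cyclin-dependent kinases have inactivated the retinoblastoma protein. Genes of G2 and mitosis come on later, under complexes of MuvB proteins with B-MYB and FOXM1 that bind a short promoter element known as the cell cycle genes homology region (CHR), often with CCAAT boxes bound by NF-Y. Of the gate genes, Top2a encodes the topoisomerase that untangles sister DNA, Mki67 the Ki-67 protein that coats mitotic chromosomes, Cenpf a kinetochore protein, and Ube2c the ubiquitin-conjugating enzyme that works with the anaphase-promoting complex.

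The promoters of the 4 gate genes are printed because they define the dividing cells, with that of the S phase gene Pola1 (DNA polymerase alpha) for contrast, which was picked after the matches had been seen. Each window runs from 250 bases before to 50 bases after the RefSeq start on GRCm38.p6, 5' to 3' on the strand of the gene, at chr11:99024140-99024439 (minus strand) for Top2a, chr7:135716330-135716629 (minus) for Mki67, chr1:189688037-189688336 (minus) for Cenpf, chr2:164769679-164769978 (plus) for Ube2c and chrX:93632106-93632405 (minus) for Pola1. Capitals mark matches on either strand to the CHR letters TTTGAA or TTTAAA, to the CCAAT box, or to an E2F site spelled TTTGGCGC, TTTCCCGC, TTTCGCGC or TTTGCCGC; some CCAAT boxes on opposite strands share letters, as in Ube2c.
Top2a: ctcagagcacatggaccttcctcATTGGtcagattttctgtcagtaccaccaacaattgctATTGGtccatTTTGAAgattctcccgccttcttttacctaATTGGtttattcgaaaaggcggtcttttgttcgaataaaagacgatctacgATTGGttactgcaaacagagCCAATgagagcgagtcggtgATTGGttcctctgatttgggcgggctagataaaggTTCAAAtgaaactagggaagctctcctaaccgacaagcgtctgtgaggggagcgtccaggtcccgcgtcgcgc
Mki67: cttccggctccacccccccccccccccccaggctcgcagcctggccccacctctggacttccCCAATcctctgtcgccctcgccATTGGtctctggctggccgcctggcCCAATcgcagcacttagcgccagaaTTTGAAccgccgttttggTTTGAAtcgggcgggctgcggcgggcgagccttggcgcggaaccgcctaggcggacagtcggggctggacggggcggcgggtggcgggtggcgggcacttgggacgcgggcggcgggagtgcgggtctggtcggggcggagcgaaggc
Cenpf: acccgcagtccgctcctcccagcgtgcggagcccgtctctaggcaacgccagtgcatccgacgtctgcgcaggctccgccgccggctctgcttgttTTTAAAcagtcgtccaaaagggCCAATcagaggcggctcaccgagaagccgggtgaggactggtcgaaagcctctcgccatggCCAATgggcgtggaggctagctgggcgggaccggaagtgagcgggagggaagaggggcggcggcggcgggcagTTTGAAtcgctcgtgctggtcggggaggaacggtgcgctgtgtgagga
Ube2c: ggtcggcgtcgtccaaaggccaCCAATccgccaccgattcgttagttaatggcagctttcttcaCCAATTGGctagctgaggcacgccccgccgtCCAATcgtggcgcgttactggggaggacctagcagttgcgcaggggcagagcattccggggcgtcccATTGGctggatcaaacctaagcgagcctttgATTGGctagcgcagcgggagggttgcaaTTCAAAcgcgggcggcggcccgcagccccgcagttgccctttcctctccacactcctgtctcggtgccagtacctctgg
Pola1: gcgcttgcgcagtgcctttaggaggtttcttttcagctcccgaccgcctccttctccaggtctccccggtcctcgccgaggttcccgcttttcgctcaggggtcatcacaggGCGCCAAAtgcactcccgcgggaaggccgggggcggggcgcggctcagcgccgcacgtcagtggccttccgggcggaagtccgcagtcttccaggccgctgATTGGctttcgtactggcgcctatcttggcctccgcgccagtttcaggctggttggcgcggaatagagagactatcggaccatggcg

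All 4 gate promoters held TTTGAA and CCAAT, and none held an E2F site of these letters. The Top2a promoter had 2 TTTGAA and 6 CCAAT matches, with a TTTGAA beginning 23 bases before the start, and Ube2c likewise had 1 TTTGAA 29 bases before the start and 6 CCAAT matches. The Mki67 window held 2 TTTGAA and 3 CCAAT matches. In Cenpf, 1 TTTGAA lay just inside the transcript, with 1 TTTAAA and 2 CCAAT matches upstream. The Pola1 promoter differed, with 1 E2F match, 1 CCAAT match and no CHR. These are matches of letters and not measured binding sites.

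The shares of promoters with these letters differed between the gene lists described below for the CHR and E2F letters, and not between S phase and G2/M genes for CCAAT. A CHR match of either spelling stood in 33 of the 43 promoters found for the G2/M list (76.7%), in 13 of 21 for kinesins and spindle genes (61.9%), in 6 of 13 for centromere and kinetochore genes (46.2%) and in 7 of 30 for the S phase list (23.3%), beside 27.8% of all 27025 promoters. The E2F letters showed the opposite order, with 13 of 30 S phase promoters (43.3%), 2 of 13 centromere promoters (15.4%), 2 of 21 kinesin and spindle promoters (9.52%), 2 of 43 G2/M promoters (4.65%) and 2.32% of all promoters. CCAAT boxes were frequent in S phase (73.3%) and G2/M promoters (74.4%) alike, beside 37.9% of all promoters.

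**Figure D1:**
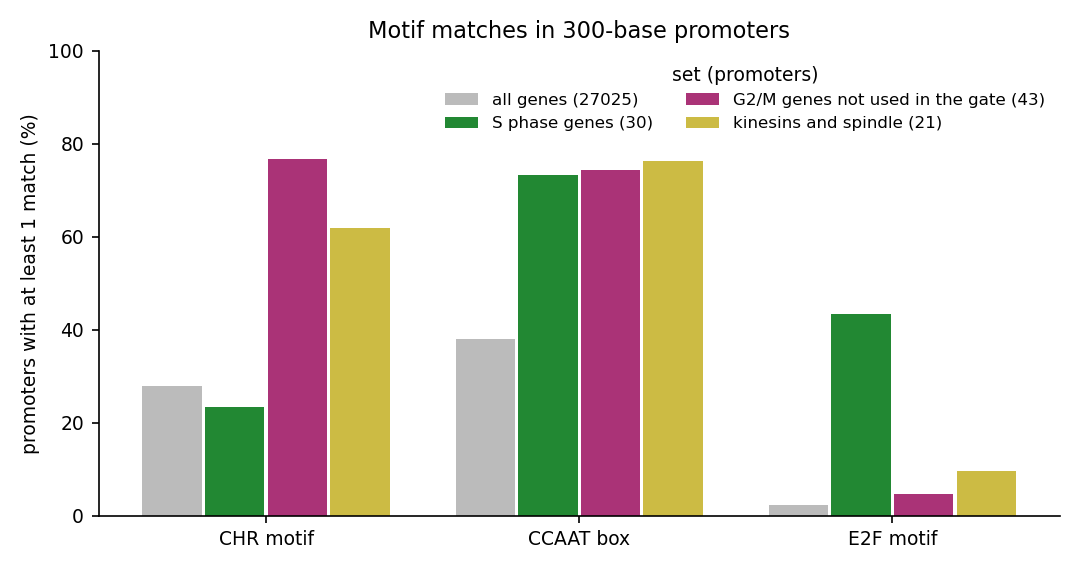
Percentage of 300-base promoters with at least 1 match to the CHR (TTTGAA or TTTAAA), the CCAAT box or an E2F site, for all genes and for 3 gene lists, with the number of promoters in brackets. CHR matches stood in 76.7% of the G2/M and 23.3% of the S phase promoters, E2F matches in 4.65% and 43.3%.

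The dividing cells were 33.0% of the gated control cells (31.5 to 34.6%, Clopper-Pearson) and 28.5% of the gated ENZ cells (27.1 to 29.9%). The difference was -4.54 percentage points, with a Newcombe interval of -6.59 to -2.49 points. A threshold in UMIs favours deep cells, and the share climbed with depth in both libraries. Among cells of at least 8000 and under 12000 UMIs, 6.22% (4.14 to 8.92%) of control and 3.27% (1.75 to 5.53%) of ENZ cells were dividing. From 24000 to under 36000 UMIs, the shares were 47.7% (44.4 to 50.9%) and 39.0% (36.2 to 41.9%), and from 36000 UMIs on, 69.3% (65.8 to 72.7%) and 66.0% (62.6 to 69.2%). The ENZ share was the lower of the pair in all 5 depth classes, but the intervals overlapped in the 2 shallowest classes and in the deepest one.

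**Figure D2:**
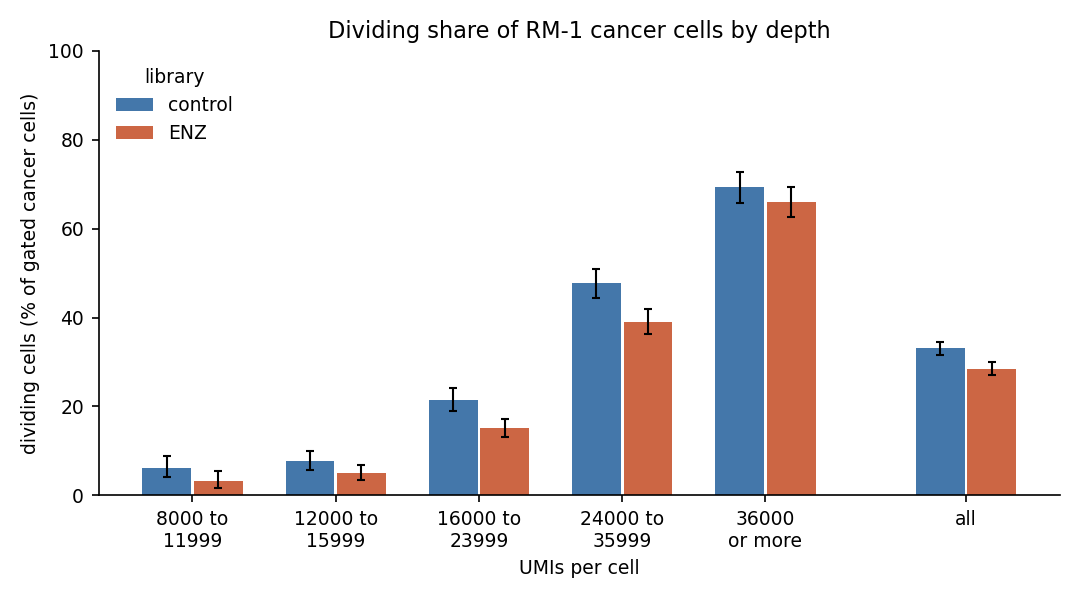
Dividing cells as a percentage of gated cancer cells in 5 classes of UMIs per cell and over all cells, for the control and the ENZ library, with Clopper-Pearson 95% intervals as error bars. The share climbs from 6.22% to 69.3% in control cells and from 3.27% to 66.0% in ENZ cells.

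With the ENZ cells reweighted to the depth of the control cells, the difference in share was -5.47 points. When each cell was thinned to 8000 UMIs and called dividing at 3 UMIs or more, the shares were 35.8% and 29.8%, a difference of -6.01 points. Few cells lay near the threshold, with 90 control and 74 ENZ cells at 10 to 12 UMIs and 132 and 122 cells at 7 to 9. At the other end, 866 control and 1056 ENZ cells had no UMI of the 4 genes.

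The dividing cells carried more RNA than the other cancer cells. Their median was 32217 UMIs and 6142 genes per control cell and 34100 UMIs and 6406 genes per ENZ cell, against 17994 UMIs and 4623 genes, and 19348 UMIs and 4836 genes, in the other cancer cells. Thinned to 8000 UMIs, the medians came to 3011 and 3082 genes in dividing cells and 2945 and 2988 genes in the others. The mitochondrial share was close in both classes, with medians of 3.02% and 3.03% in dividing and 3.09% and 2.98% in other cells. Because depth is part of what the UMI threshold selects, ratios are given below both as summed and, where marked depth-matched, against other cancer cells reweighted to the UMI counts of the dividing cells.

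Levels are given as CPM, for which all cells of a class in a library were pooled and the UMIs per gene scaled to a common total. Where values come in pairs, the first is from the control and the second from the ENZ library. The gate genes, which chose the cells and are given as a description, had the following levels. Top2a (chr11:98992943-99024189 on GRCm38, minus strand) stood at 785 and 857 CPM in dividing cells, and at 36.1 and 35.6 CPM in the other cells. Mki67 (chr7:135689784-135716361, minus) had 207 and 246 CPM in dividing cells, and 12.6 and 11.3 CPM in the others. For Cenpf (chr1:189640606-189688086, minus) the levels were 201 and 220 CPM, and 8.94 and 6.58 CPM in the others. Ube2c (chr2:164769898-164778822, plus) had 670 and 597 CPM, and 26.8 and 19.1 CPM in the others. Against control, the ENZ dividing cells were slightly higher for 3 of the 4 genes and slightly lower for Ube2c, at 0.891 of the control level (0.876 to 0.905).

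The label of prostate cancer cell was checked against marker genes. The cancer gate genes, which the gate itself required, summed to 1694 and 1642 CPM in dividing cells and to 1106 and 1175 CPM in barcodes of at most 100 UMIs, which hold free RNA. Outside the gate, the luminal keratins Krt8 (435 and 483 CPM) and Krt18 (387 and 401 CPM) were present. Of genes that mark prostate epithelium, Pbsn and Hoxb13 had 0 UMIs in dividing cells, and below 1 CPM were the basal keratins Krt5 and Krt14 and the adhesion gene Cdh1 (0.832 and 0.911 CPM). Pbsn, Hoxb13 and Krt5 were thus not detected at this depth. Vim, the mesenchymal intermediate filament, stood at 2336 and 2179 CPM.

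Markers of immune cells were found at low levels in dividing cells and differed between the libraries. All 4 neutrophil markers were detected, with a sum of 92.8 and 22.6 CPM in dividing cells, led by S100a9 (59.5 and 12.9 CPM). The 9 macrophage and monocyte markers summed to 86.0 and 51.7 CPM, led by Lyz2 (46.0 and 21 CPM), and the sums for T cells (4.82 and 3.40 CPM), natural killer cells (7.22 and 2.08 CPM), B cells (1.27 and 1.24 CPM) and dendritic cells (4.12 and 3.86 CPM) were lower still, with no marker at 0. The barcodes of free RNA had 1797 and 754 CPM of the neutrophil and 2227 and 1355 CPM of the macrophage markers. From immune genes, free RNA was estimated at 4.60% of the UMIs of control and 3.70% of ENZ dividing cells. Fibroblast markers (39.2 and 33.8 CPM, led by Dpt) and mural markers (56.5 and 38.6 CPM, led by Acta2) were lower as summed in the dividing than in the other cells (91.0 and 68.2 CPM, and 101.8 and 85.0 CPM). Depth-matched ratios were 0.798 and 0.695 for Dpt. For Acta2 they were 1.02 (0.924 to 1.13) and 0.90 (0.802 to 1.01), with intervals that included 1. Endothelial markers were similar in dividing (41.8 and 41.7 CPM) and other cells (41.6 and 39.9 CPM). The barcodes of free RNA had 43.1 and 46.9 CPM of them, and the source of these UMIs was not tested.

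Against the other cancer cells, 323 of 3534 genes with at least 50 CPM (9.14%) were at least 1.5-fold higher in the dividing cells of both libraries, with intervals clear of 1, and 163 (4.61%) were at least 1.5-fold lower. None passed in opposite directions (0.0%). Since the cells were chosen by their counts, these numbers describe the gate and carry no test. Matched for depth, 226 of 3449 genes were higher (6.55%) and 55 lower (1.59%), a larger drop for the lower than for the higher genes. The genes ranked highest were Nusap1, Aurkb, Kif11, Plk1, Ndc80, Hmmr, Cep55, Kif4, Spc25 and Pbk, which with the exception of the kinase gene Pbk encode parts of the spindle, the kinetochore or the machinery of cytokinesis, or the kinases that run them.

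G2/M genes outside the gate differed most. All 49 of the list were at least 1.5-fold higher in dividing cells in each library, beside 8.46% and 10.0% of all genes with at least 5 CPM (6.83% and 7.85% depth-matched), and the median log2 ratio was 3.49 and 3.75 (3.43 and 3.60 depth-matched), beside -0.05 and -0.03 over all genes. Nusap1, a microtubule binding protein of the spindle, had 190 and 176 CPM in dividing cells and 4.38 and 4.08 CPM in the others, ratios of 43.4 (38.1 to 49.7) and 43.2 (38.3 to 49.0). Aurkb, the kinase of the chromosomal passenger complex, reached 101 and 83.6 CPM against 2.64 and 2.30 CPM. Hmgb2, a chromatin protein, had 1119 and 1016 CPM against 167 and 133 CPM. Only 33 of the 49 genes reached 5 CPM in the other cells of either library, so the rest were measured through the dividing cells in which they were high, and the count and the median are no support for a difference. The same holds for lists given below, of which 17 of 27 kinesin and spindle genes, 11 of 16 centromere genes, 23 of 28 cell cycle engine genes, 15 of 19 cohesin and condensin genes, 10 of 20 repair genes, 39 of 41 S phase genes, 12 of 13 histone variants and chaperones and 17 of 21 replication dependent histones reached 5 CPM in the other cells. At the low end of the list stood Cbx5 (heterochromatin protein 1 alpha), with ratios of 1.70 and 1.66, and the insulator protein Ctcf, with 1.75 and 1.67, which cells outside mitosis use as well.

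Kinesins and spindle genes showed the same direction in 24 of 27 members in each library, with median log2 ratios of 3.0 and 3.16 (2.81 and 3.11 depth-matched). Aspm, which holds spindle poles together, stood at 42.5 and 49.2 CPM in dividing cells and 1.29 and 1.69 CPM in the others. Tubb5, a beta tubulin in all cells, had 1600 and 1355 CPM against 720 and 618 CPM, ratios of 2.22 and 2.19. The 3 members not past 1.5-fold were the transport kinesins Kif5b and Kif1b and the tubulin Tuba1a, and Kif1b was lower in dividing cells, with ratios of 0.69 (0.655 to 0.727) and 0.702 (0.671 to 0.735). Of the 16 centromere and kinetochore genes, 16 and 15 were higher, with medians of 2.6 and 2.81, from Knl1, a scaffold of the outer kinetochore (155 and 157 CPM against 10.3 and 9.60 CPM), down to Cenpc1 of the inner kinetochore, with ratios of 1.63 and 1.48.

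Cohesin and condensin genes split. In each library 12 of 19 were higher, with medians of 0.86 and 0.83 (0.93 and 0.83 depth-matched). The members with large ratios act in mitosis or in the S phase loading of cohesion: the acetyltransferase gene Esco2 had 27.5 and 23.2 CPM against 0.55 and 0.60 CPM, ratios of 49.8 (34.5 to 74.7) and 39.0 (28.4 to 55.2), the separase gene Espl1 had ratios of 21.9 and 19.8, and the condensin genes Smc2 and Ncapg had log2 ratios of 3.16 and 3.08, and 3.95 and 4.02. The cohesin core genes Smc1a and Smc3, needed at all times, had log2 ratios of only 0.75 and 0.80, and 0.79 and 0.80. Nipbl, the cohesin loader, was close to even, with ratios of 0.88 and 0.867.

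S phase genes were higher too, by less. Of the 41 listed, 37 and 36 were at least 1.5-fold higher, with median log2 ratios of 1.43 and 1.5 (1.20 and 1.34 depth-matched, with 35 members higher in each). Rrm2, the inducible subunit of ribonucleotide reductase, stood at 90.3 and 87.8 CPM in dividing and 9.82 and 8.20 CPM in other cells, ratios of 9.20 and 10.7. Clspn, which links stalled forks to the checkpoint kinase Chk1, had ratios of 8.14 and 9.14. The helicase genes Mcm2 to Mcm7 spanned log2 ratios of 0.58 to 1.68. At the low end stood the uracil glycosylase gene Ung (ratios of 1.18 and 1.25), and after depth matching its interval included 1 in both libraries.

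Some of the cells below the division threshold also carried many S phase mRNAs. In cells thinned to 8000 UMIs the dividing cells had a median of 23 S phase UMIs in each library, and 131 control (5.23%, 4.39 to 6.18%) and 139 ENZ cells (4.62%, 3.90 to 5.43%) among the other cancer cells reached that level. Of these, 121 and 131 had fewer G2/M UMIs than the lower quartile of the dividing cells (44 and 42). The gate thus left out cells rich in S phase mRNAs.

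Genes of nucleotide supply and DNA repair followed the S phase list. Of 15 nucleotide synthesis genes, 11 and 12 were higher, with medians of 1.01 and 1.19 (8 and 9, with 0.72 and 0.82, at like depth), among them Tk1 (thymidine kinase), with ratios of 6.01 and 6.61. Purine enzymes such as Paics and Atic stayed under 1.5-fold, with log2 ratios of 0.40 and 0.34, and 0.49 and 0.49. In the repair list 18 of 20 were higher in each library, with medians of 1.66 and 1.73. Rad51ap1, a partner of the recombinase, had ratios of 9.31 and 13.4, and Fancd2 of the Fanconi pathway 7.71 and 9.97, while the checkpoint kinases Atr (1.27 and 1.41) and Atm (1.27 and 1.46) stayed below 1.5-fold as summed. At like depth 17 and 19 were higher, with Atr at 1.23 and 1.56 (1.40 to 1.73).

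Replication dependent histones wrap newly made DNA and are transcribed in S phase, mostly as mRNAs without a poly(A) tail, which the 3' method captures poorly. Of 21 measured, 18 were higher in each library, with medians of 2.44 and 2.34 (2.63 and 2.39 depth-matched). Hist1h3c had 68.7 and 95.3 CPM in dividing and 3.21 and 3.19 CPM in other cells, and the linker histone gene Hist1h1b 533 and 559 CPM against 84.1 and 102 CPM. The exceptions were Hist1h1c, Hist1h2ac and Hist1h2bc, the last with ratios of 0.89 and 0.795 as summed. At like depth 19 were higher in each library, with Hist1h2ac at 1.53 and 1.77. Hist1h2bc then stood at 1.12 (1.07 to 1.17) in the control and 0.943 (0.907 to 0.981) under ENZ. Histone genes are near-identical copies, so the split of reads between single members is uncertain. Among histone variants and chaperones, 10 and 11 of 13 were higher, from the chaperone gene Asf1b (31.0 and 29.2 CPM against 3.23 and 2.69 CPM) to H2afz (1675 and 1445 CPM against 593 and 456 CPM), and the replacement histones H3f3a and H3f3b were near even, with log2 ratios of 0.15 and 0.15, and 0.14 and -0.07.

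In the cell cycle engine, 17 of 28 genes were higher and 1 was lower in each library, with medians of 1.06 and 1.03. Plk1, the kinase of mitotic entry, stood at 72.1 and 75.9 CPM against 2.76 and 2.29 CPM, ratios of 26.1 (22.1 to 31.1) and 33.1 (28.1 to 39.3). Ccna2 (cyclin A2) had ratios of 20.9 and 24.6, and the transcription factor Foxm1 7.01 and 6.91. Ccnd1 (cyclin D1), which acts before commitment to the cycle, was near even, at 174 and 212 CPM against 171 and 196 CPM. Ccnd3 (cyclin D3) was the lower one, with ratios of 0.612 (0.592 to 0.633) and 0.643 (0.624 to 0.663), though it stood at 0.76 and 0.823 after depth matching and Ccnd2 took its place as the 1 lower gene, with depth-matched log2 ratios of -1.04 and -1.29.

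The brakes of the cycle had no common direction. Of 18 CDK inhibitors and p53 targets, 2 were higher and 3 lower in each library, and the medians were -0.11 and -0.01. Over all genes 8.46% and 10.0% were higher, and the count of higher members lay near that share. Lower were 8.29% and 7.79% of all genes (3.94% and 4.58% depth-matched). The higher ones were Cdkn2c (p18, ratios of 2.54 and 3.57) and Cdkn2d (p19, 2.96 and 3.14), inhibitors of CDK4 and CDK6 that are themselves E2F targets. The lower ones were Gadd45b, Gadd45g and Btg2, with Gadd45b at 82.2 and 62.0 CPM in dividing and 170 and 109 CPM in other cells. Cdkn1a (p21), the main p53 target among the inhibitors, had 250 and 249 CPM against 257 and 256 CPM, ratios of 0.974 and 0.975, but a depth-matched ratio of 0.642 (0.623 to 0.661) and 0.629 (0.610 to 0.649). At like depth the dividing cells therefore held less Cdkn1a in each library, and 6 and 5 members of the list were lower. Cdkn2a and Cdkn2b had at most 9 UMIs in any library of dividing cells.

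The genes ranked lowest in dividing cells were Pcdh9, Cebpd, Sugct, Adgrl3, Plcl1, Gm20186, Cp, Tnc, Col4a5 and Tshz2. Pcdh9, a protocadherin of neural adhesion, had 69.0 and 44.2 CPM in dividing and 265 and 192 CPM in other cells, ratios of 0.26 (0.25 to 0.27) and 0.23 (0.22 to 0.242), which were 0.509 and 0.46 after depth matching. Cebpd, a transcription factor of differentiation and inflammation, had ratios of 0.268 and 0.247 (0.515 and 0.439 depth-matched), and Adgrl3, a latrophilin, 0.319 and 0.313 (0.524 and 0.521). All 10 had ratios below 1 at both settings, with smaller differences at like depth. In the control, Cp (0.704, 0.656 to 0.755) and Tshz2 (0.70, 0.671 to 0.731) no longer passed 1.5-fold at like depth. Tnc, the matrix protein tenascin C, went from 0.374 and 0.405 to 0.421 and 0.614.

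**Figure D3:**
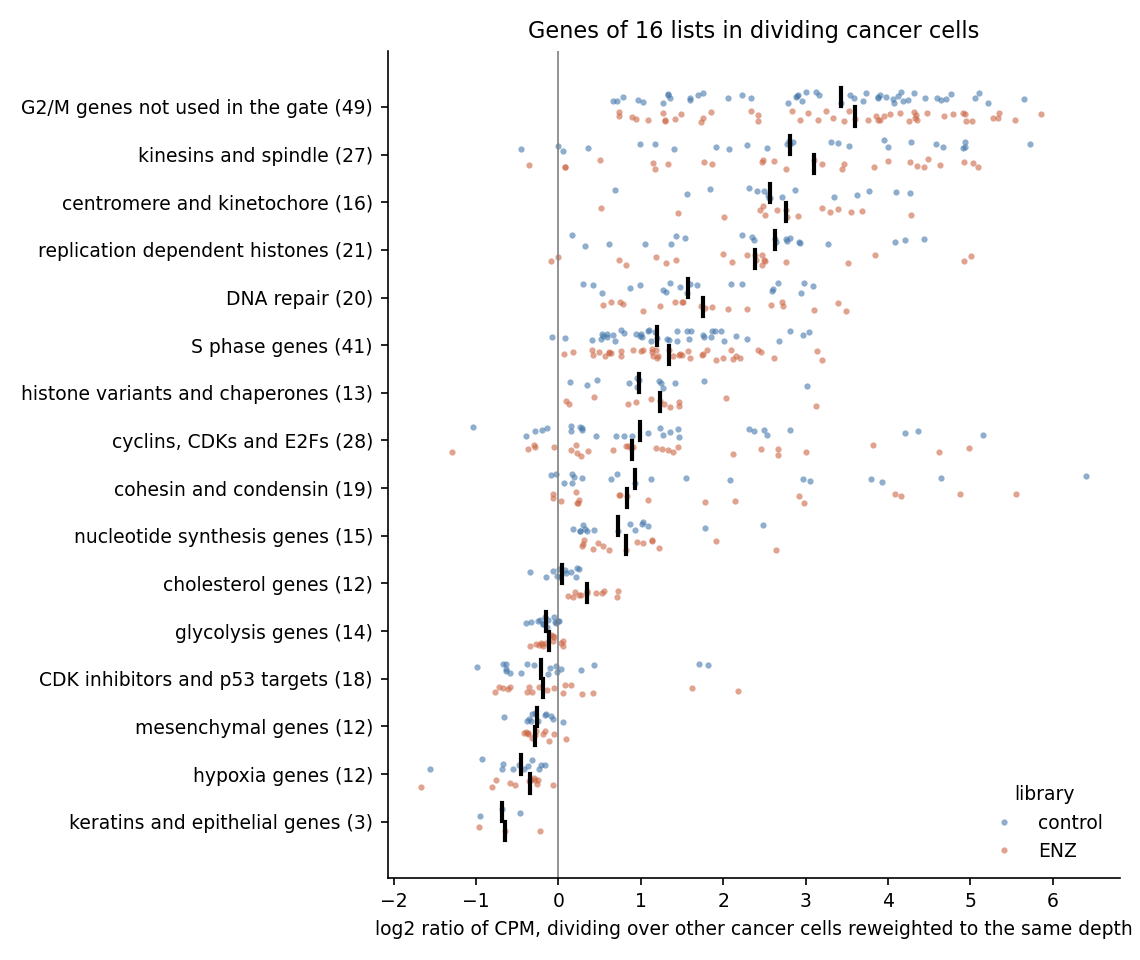
Depth-matched log2 ratio of CPM in dividing over other cancer cells for the measured genes of 16 lists (number measured in the control in brackets), a point per gene and library and a black bar at the list median. The medians lie at 3.43 and 3.60 for G2/M genes, 1.20 and 1.34 for S phase genes and -0.69 and -0.65 for the 3 keratins, for control and ENZ.

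Mesenchymal genes were lower in 6 of 13 members in each library, beside 8.29% and 7.79% of all genes, with medians of -0.54 and -0.56. Among genes of at least 50 CPM, Col1a1 led (102 and 79.3 CPM in dividing, 230 and 180 CPM in other cells). Depth matching left 1 and 0 of 12 lower, near the share of 3.94% and 4.58% over all genes. The medians were then -0.27 and -0.28, with Col1a1 at 0.765 and 0.821. Fibroblast markers were lower in dividing cells too, as given above, and their part in these values was not tested; the gate capped Dcn, Lum and Dpt, the last of which led that sum, at a fixed number of UMIs per cell, which bears more on the deeper dividing cells. Of the 3 measured keratins, 2 were lower at like depth: Krt8 had ratios of 0.969 and 0.904 as summed, and 0.62 (0.606 to 0.634) and 0.639 (0.625 to 0.653) at like depth, and Krt19 0.516 and 0.514 at like depth, while Krt18 (0.723 and 0.859) did not pass 1.5-fold. In cells thinned to 8000 UMIs, without matching for depth, the mean of Krt8 was 3.06 UMIs in dividing and 2.80 UMIs in other control cells, and 3.54 and 3.61 UMIs in ENZ cells. Hypoxia genes also parted more at like depth, with 4 of 12 lower in each library, beside 3.94% and 4.58% of all genes. As summed, 2 and 3 of 12 were lower, beside 8.29% and 7.79%. The 4 genes were Car9 (0.338 and 0.314), which buffers pH, Ndrg1 (0.528 and 0.571), Bnip3 (0.622 and 0.593) and Vegfa (0.63 and 0.663). Glycolysis genes had 0 of 14 past 1.5-fold at either setting, with medians of 0.10 and 0.06, and -0.15 and -0.12 depth-matched.

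Metabolic and stress lists varied. In the ER stress and amino acid list 5 of 12 were higher in each library (Psat1, Phgdh, Asns, Chac1 and Trib3), with Psat1, an enzyme of serine synthesis, at 97.6 and 106 CPM against 44.0 and 50.7 CPM, and 2 were at least 1.5-fold higher after depth matching in each library (Chac1 and Trib3 in the control, Chac1 and Psat1 under ENZ), while the stress factor Ddit3 was lower under ENZ, at 0.664 (0.608 to 0.726). Cholesterol genes had 1 and 3 higher members of 12, with medians of 0.26 and 0.42, and 0 and 2 at like depth, with 0.05 and 0.34, beside 8.46% and 10.0% of all genes that were higher (6.83% and 7.85% at like depth), so the control count was no more than the share over all genes. Of the interferon and antigen presentation list, 4 and 3 of 17 were lower, and 1 and 2 at like depth, among them Irf1, which drives antigen presentation genes (ratios of 0.51 and 0.59, and 0.623 and 0.622 at like depth), and the chemokine Cxcl10 was higher at like depth (1.86 and 1.65). Among 19 Ras and Myc pathway genes, 2 and 3 were higher and 1 and 2 lower, and of 18 at like depth 0 and 1 were higher and 0 and 1 lower. The nucleolar genes Ncl and Nop56 were higher as summed, with Ncl at ratios of 1.67 and 1.78 but 1.37 and 1.51 at like depth and Nop56 at 1.34 and 1.43 at like depth, and Nras was near even. The neural adhesion list had 4 and 3 of 9 lower members, immediate early and heat shock genes 2 and 4 of 18, apoptosis genes 2 and 1 of 14, and the androgen and glucocorticoid list 0 of 4, beside the 8.29% and 7.79% of all genes that were lower. At like depth these counts were 2 and 2, 0 and 1, 1 and 1, and 0, beside 3.94% and 4.58% of all genes, and the immediate early and apoptosis counts lay near that share.

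Of the stem cell and study genes, only Sox9 of 12 was lower past 1.5-fold as summed (70.4 and 67.2 CPM in dividing against 113 and 107 CPM in other cells). That count lay near the share over all genes, 8.29% and 7.79%. At like depth none of the list was lower past 1.5-fold. Camk1d, a calcium-dependent kinase which the study linked to ENZ resistance, had ratios of 0.675 and 0.744 between dividing and other cells, and 0.899 and 0.918 at like depth. Cd44, the hyaluronan receptor, had ratios of 0.889 and 0.886, and 0.815 and 0.819 at like depth. Prom1 (CD133) was found as 19 UMIs in 4 control cells, 16 of them in 1 cell, and 1 UMI in the ENZ dividing cells. The rRNA-like and nuclear RNA list was lower in 8 and 4 of 10 members, beside 8.29% and 7.79% of all genes. At like depth it was lower in 1 member, beside 3.94% and 4.58% of all genes. That member was the nuclear RNA Neat1, with depth-matched ratios of 0.533 and 0.48. Malat1, another nuclear RNA, was at 0.704 and 0.692.

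Dividing cells were ordered by their S share, the UMIs of the S phase list over those of the S phase and G2/M lists, in cells thinned to 8000 UMIs. The share formed a continuous range, with medians of 28.3% in control cells (quartiles 19.8 and 39.5%) and 29.1% in ENZ cells (20.2 and 42.3%). S phase UMIs outnumbered G2/M UMIs in 135 control cells (10.9%) and 159 ENZ cells (13.3%). The cells were cut into 5 equal groups from the lowest to the highest S share. Depth was similar across the groups, with median UMIs from 30196 to 35122 (control) and from 31942 to 37634 (ENZ), while the 4 division genes went from a median of 26 to 7 thinned UMIs and from 24.5 to 6. The groups are slices of a range and not cell types.

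Along that order, several cell cycle genes outside the 2 lists, named after their values were seen, differed between the ends. Ccne1 and Ccne2, the cyclins of S phase entry, were lowest where the S share was lowest, with Ccne1 at 2.02 CPM in group 1 and 49.5 CPM in group 5 of the control, 24.5 times as much (15.1 to 42.4), and at 2.37 and 59.9 CPM under ENZ, and Ccne2 at 5.83 and 61 CPM, and 5.60 and 77.6 CPM. E2f1, which switches on S phase genes, went from 11.6 to 55.7 CPM and from 11.3 to 53.1 CPM. Lig1, the ligase of Okazaki fragments, went from 66.7 to 200.3 CPM and from 60 to 181 CPM. In the opposite direction, Plk1 went from 145.5 to 18.9 CPM and from 132 to 19.1 CPM, and the phosphatase gene Cdc25b, which activates CDK1, from 84.2 to 16.1 CPM and from 78.6 to 14.7 CPM. Of the gate genes, Ube2c (1412 to 130.5 CPM and 1135 to 81.3 CPM) and Cenpf (425 to 54.1 CPM and 433 to 47.1 CPM) differed most between the ends, whereas Top2a (982 to 628 CPM and 1085 to 542 CPM) and Mki67 (264 to 165 CPM and 307 to 152 CPM) differed less.

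The lists took different courses. Kinesins and spindle genes summed to 7076 CPM in group 1 and 4689 CPM in group 5 of the control, and to 6398 and 3976 CPM under ENZ. DNA repair genes went up from 470 to 920 CPM and from 495 to 902 CPM, and nucleotide synthesis genes from 1144 to 1838 CPM and from 1117 to 1755 CPM. Replication dependent histones peaked in group 4 in each library, at 3611 and 4395 CPM, and were lower in group 5, at 2937 and 2870 CPM. Among them Hist1h2bc was highest in group 1 and lowest in group 5, from 272 to 74.8 CPM and from 273 to 57.2 CPM. Cohesin and condensin genes (1957 to 2041 CPM over the groups of the control) and glycolysis genes (7332 to 7940 CPM) were nearly level. Cdkn1a was lowest in group 1 (176 and 194 CPM) and highest in group 5 (308 and 303 CPM), the end where the division genes were lowest. Camk1d was level in each library, at 536 and 563 CPM and at 1274 and 1349 CPM.

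**Figure D4:**
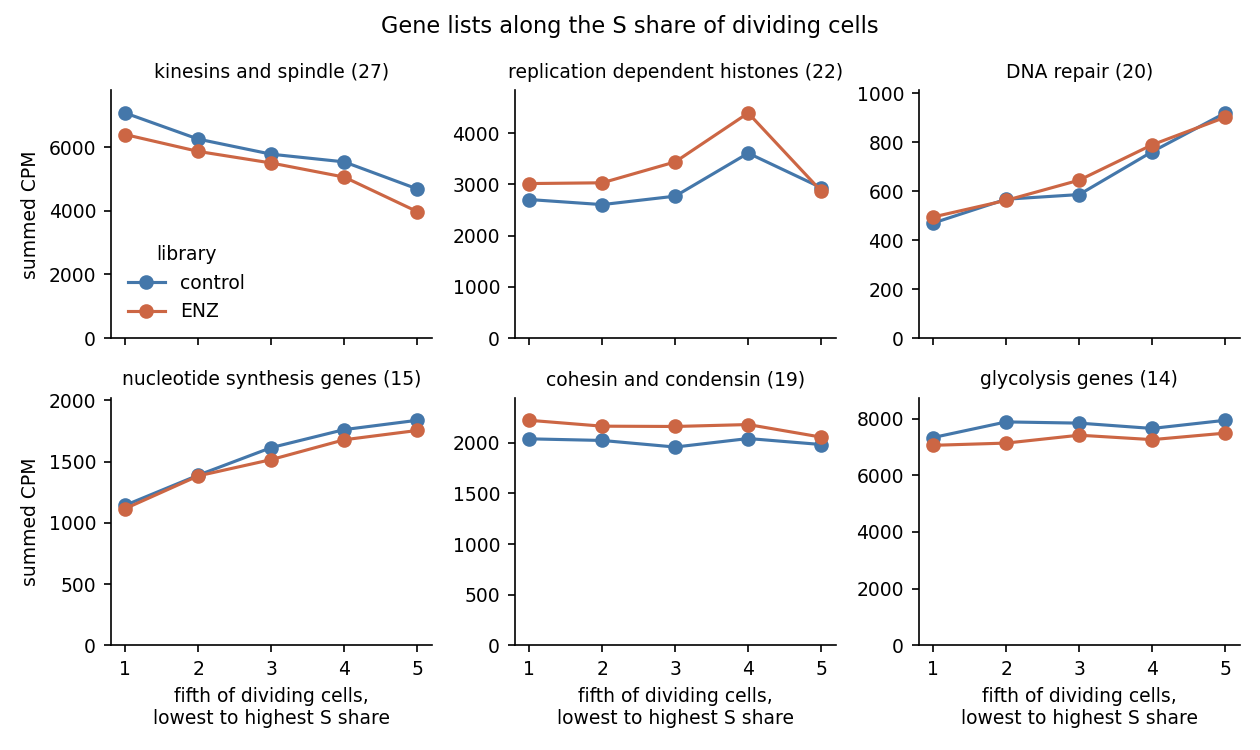
Summed CPM of 6 gene lists in 5 equal groups of dividing cells from the lowest (1) to the highest (5) S share, for the control and the ENZ library, with the number of genes in brackets. Kinesins and spindle genes decline from group 1 to group 5, repair and nucleotide genes climb, and histones peak in group 4 at 3611 CPM (control) and 4395 CPM (ENZ).

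Across single dividing cells thinned to 8000 UMIs, the genes most like the sum of the 4 gate genes, among 5598 genes compared, were Nusap1, Prc1, Arl6ip1, Tubb5, Tpx2, Cdk1, Smc4, Cenpe, Ccnb1 and H2afx. Spearman correlations were 0.588 and 0.552 for Nusap1, 0.527 and 0.563 for Prc1, a bundler of the spindle midzone, and 0.522 and 0.525 for Arl6ip1, over 1235 control and 1199 ENZ cells, and 0.377 and 0.405 for H2afx, the last of them. The cells of a library share its preparation, so the values are a description. Of the 10 genes, Arl6ip1, which shapes the membrane of the endoplasmic reticulum, was the 1 outside the lists of division, with 177 and 167 CPM in dividing and 59.2 and 59.1 CPM in other cells.

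Between the treatments, the dividing cells of both libraries were close. Of 3567 genes with at least 50 CPM, 19 (0.533%) were at least 1.5-fold higher and 33 (0.925%) at least 1.5-fold lower in ENZ than in control dividing cells (11 and 39 of 3485 with median-of-ratios scaling), and in the other cancer cells 14 (0.401%) and 39 (1.12%) were higher and lower. No S phase gene of 41 and no G2/M gene of 49 differed by 1.5-fold, with median log2 ratios of 0.06 and 0.04 beside 0.05 over all genes; at 5 CPM or more, 0.814% of genes were higher and 1.49% lower in dividing cells, and 0.703% and 1.89% in other cells. With that scaling the G2/M median was -0.026. In the other cancer cells, 3 of 33 measured G2/M genes were lower in the ENZ library, with a median of -0.08. The S phase and G2/M lists in dividing cells were thus within 1.5-fold of control gene by gene, at the precision of 1 library each.

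**Figure D5:**
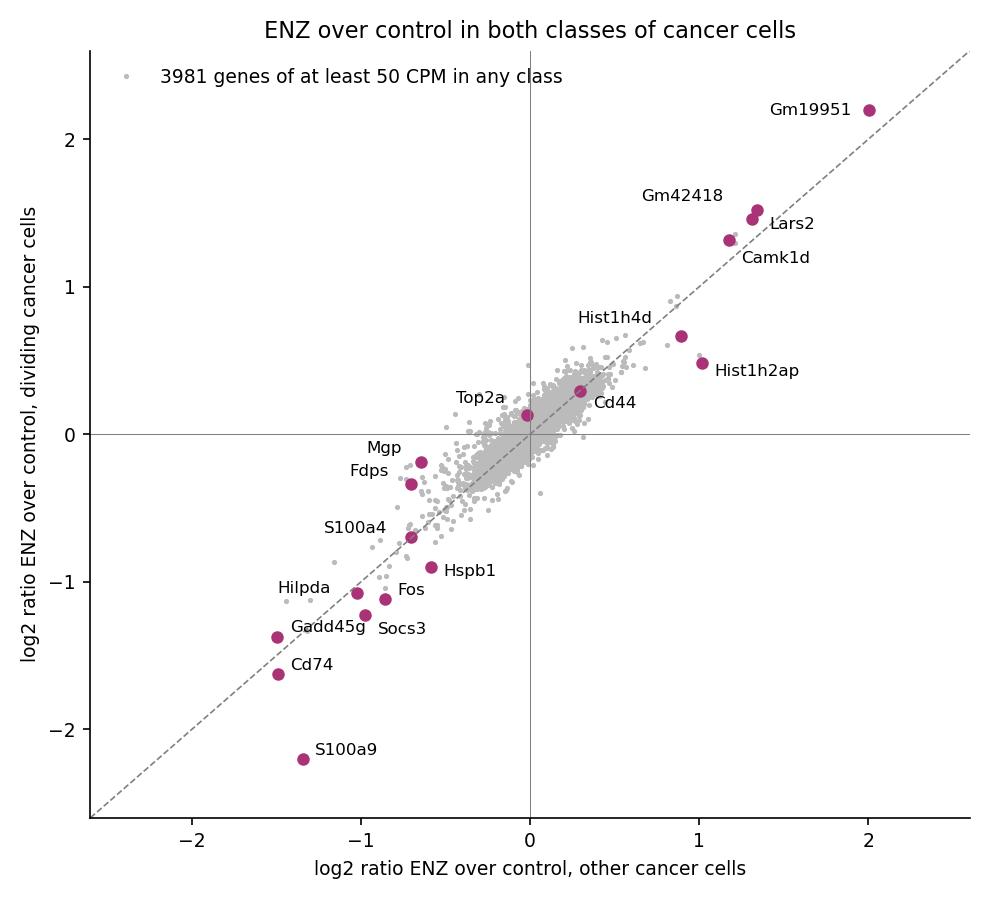
log2 ratio of CPM, ENZ over control, in dividing cancer cells (vertical) against other cancer cells (horizontal) for 3981 genes of at least 50 CPM in any class, with the line of equal ratios dashed. Most genes lie near 0 in both classes, Gm19951, Gm42418 and Camk1d at the upper right, and S100a9 below the line at the lower left.

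The genes highest in ENZ dividing cells were Gm19951, Gm42418, Lars2, Cmss1, Camk1d, Gphn, Cdk8, Col5a3, Hist1h4h and Hist1h4d. Gm42418, an rRNA-like transcript on chromosome 17 (chr17:39846958-39848788, plus strand, overlapping AY036118 on the minus strand), had 8089 and 23252 CPM in dividing cells. Camk1d (chr2:5293457-5714515, minus strand) had 512 and 1275 CPM, a ratio of 2.49 (2.45 to 2.53), and in the other cancer cells 758 and 1713 CPM, a ratio of 2.26 (2.23 to 2.29). The higher level of Camk1d in ENZ was therefore seen in both classes. At least 1 Camk1d UMI was found in every dividing cell, and in 99.88% and 100% of the other cells. Detection thus did not set the classes apart, and the part of free RNA in it was not tested. Camk1d stood beside the rRNA-like and nuclear RNA list, of which 6 of 10 members were higher in ENZ dividing cells and 6 of 10 in the other cells. Of all genes with at least 5 CPM, 0.814% and 0.703% were higher in these classes. In dividing cells that list summed to 18380 CPM in control and 37960 CPM in ENZ. The total was then taken without the members of that list other than Malat1, Neat1 and Xist, and without mitochondrial and ribosomal protein genes. The log2 ratio of Camk1d was then 1.31, beside 1.32 with the full total. This changes only the scaling, and a link between Camk1d and the list was not tested. Cd44 was higher by less, at 318 and 390 CPM, a ratio of 1.23 (1.20 to 1.25), and 1.23 in the other cells.

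Some replication dependent histones were higher in ENZ. In dividing cells 4 of 21 passed 1.5-fold, with a median log2 ratio of 0.13, and in the other cells 5 of 17, with 0.31. Over all genes with at least 5 CPM, 0.814% were higher in dividing and 0.703% in other cells. Hist1h4h had 28.0 and 51.1 CPM, a ratio of 1.82 (1.70 to 1.95), and Hist1h4d 165 and 262 CPM, 1.59 (1.54 to 1.63). The linker histone H1fx was lower, at 65.2 and 38.4 CPM.

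The genes lowest in ENZ dividing cells were S100a9, Cd74, Gadd45g, Ifi27l2a, Socs3, Fos, Gm17056, Hilpda, Dusp1 and Hspa1a. S100a9, a neutrophil gene, had 59.5 and 12.9 CPM in dividing cells, a ratio of 0.217 (0.199 to 0.238). It rested on few cells, since 25 control cells with at least 20 UMIs held 1550 of 2719 UMIs, against 114 of 597 UMIs in 3 ENZ cells, and without those cells the levels were 26.3 and 10.5 CPM. Cd74, the invariant chain of antigen presentation, had 82.9 and 26.8 CPM, and 45.3 and 22.8 CPM without the 28 control and 4 ENZ cells of at least 20 UMIs. Markers of neutrophils and macrophages in free RNA were lower in the ENZ library as well, as given above. When free RNA was subtracted, S100a9 was left at 0 in ENZ dividing cells, so that it had no ratio. S100a9 was itself among the immune genes that set the amount subtracted, so this outcome does not tell where its UMIs came from. With the same subtraction Cd74 had a log2 ratio of -1.86, and 27 genes in place of 33 were lower.

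Of the immediate early and heat shock genes, 10 of 18 were lower in ENZ dividing cells, with a median log2 ratio of -0.60, and 8 of 18 in the other cells, with -0.56. Over all genes with at least 5 CPM, 1.49% were lower in dividing and 1.89% in other cells. Fos had 820 and 379 CPM, a ratio of 0.462 (0.454 to 0.470), and in the other cells 0.552 (0.545 to 0.559). Hspa1a, an inducible chaperone, had 154 and 78.8 CPM, and Dusp1, a phosphatase of MAP kinases, 342 and 166 CPM. The classes thus shared the direction of this list. Gadd45g, a stress-induced inhibitor of the cycle, stood at 102 and 39.5 CPM, and 0.355 of control in the other cells. Socs3, the feedback inhibitor of cytokine signalling, had 163 and 69.5 CPM, and Hilpda, a hypoxia gene of lipid droplets, 127 and 60.1 CPM, with 2 of 11 hypoxia genes lower in all.

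The ENZ ratios of dividing and other cells were then set against each other. Among 3185 genes ranked, the ENZ ratio was highest in dividing relative to other cells for Mgp, Fdps, Flrt2, Hmgn2, Man1a, Slc8a1, Lgals7, Gdf15, Stmn1 and Slc38a1, and lowest for Hist1h2ap, Flt1, Hspb1, Fos, H3f3b, H1f0, Hist1h1c, Socs3, Id1 and Ccn1. Mgp, an inhibitor of calcification, had 123 and 109 CPM in control and ENZ dividing cells and 188 and 120 CPM in the others, a ratio of ratios of 1.38 (1.31 to 1.45). Fdps, of sterol synthesis, had 245 and 194 CPM, and 172 and 106 CPM in the others, 1.29 (1.23 to 1.34). Hist1h2ap had 399 and 558 CPM, and 52.2 and 106 CPM, 0.69 (0.657 to 0.724), and Flt1, a VEGF receptor, 35.0 and 50.7 CPM, and 48.8 and 97.3 CPM, 0.726 (0.671 to 0.785). None of the 20 differed in its ENZ ratio between the classes by 1.5-fold, in either direction.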

How the data were processed

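Droplet scRNA-seq had been run on RM-1 tumors, 1 library per treatment. The deposited values were unnormalised counts of UMIs, made by the authors for 32285 genes in every barcode: 2438568 barcodes with 170830346 UMIs for the control and 2239744 with 162030149 for ENZ. The file header names Cell Ranger 7.2.0 and the submitters' processing notes Cell Ranger 2.1.1 and mm10; counting of intronic reads is not given in the sources used here. Positions came from GENCODE M21 (32158 IDs matched) and promoters from RefSeq.

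The deposited counts were summed over gated cells of a library (1235 dividing control cells, 45690998 UMIs; 1199 ENZ, 46118634; other cells, 52568046 and 65520059) and scaled to CPM, with exact Poisson intervals, exact conditional binomial intervals of ratios, Clopper-Pearson intervals of shares and Newcombe intervals of differences (95%). A difference counted when it was at least 1.5-fold with an interval clear of 1. List members needed at least 5 CPM and ranked genes at least 50 CPM. Depth matching reweighted cells in 10 UMI bins. No test across samples was possible. Steps were tested on simulated data with Python 3.11.15, numpy 2.4.6, scipy 1.17.1, pandas 2.3.3 and scanpy 1.11.5.

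Members and lists were chosen with earlier results of these data known. Named genes were the gate and study genes, up to 4 extremes of each list, the 10 highest and lowest of each ranking by the bound nearer to 1, without mt-, Rpl and Rps genes, and the 10 most like the division sum; other genes of the lists were named after their values were seen. Some genes of the lists are not reported here by name. Doublets were not removed, since Scrublet marked 0 of 12348 control barcodes and so had not worked there; it marked 292 of 10354 ENZ barcodes. Alternatives covered the UMI, mitochondrial, Ptprc and division limits, thinning, doublets, depth, CPM filters, scaling, totals and free RNA.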

Additional observations from a re-analysis of the deposited data

Results flagged for a closer look

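For 3 genes named in the ranking of ENZ ratios between the classes, the ratio pointed in opposite directions in dividing and other cancer cells. Their intervals lay on either side of 1. They are not given as a full list of such genes. The difference was not tested, as each class came from 1 library per treatment. Slc8a1, a sodium-calcium exchanger, had a log2 ratio of 0.19 in dividing and -0.15 in other cells. Slc38a1, a glutamine transporter, had 0.16 and -0.09. Id1, an inhibitor of differentiation factors, had -0.14 and 0.10. All were within 1.5-fold in each class.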

How the results depend on the processing

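Among the values compared under the alternatives, which did not include every gene, no difference past 1.5-fold reversed. The dividing share was lower in ENZ at every setting, by -3.53 (division sum of at least 20) to -6.65 percentage points (cells of at least 15000 UMIs). With a division sum of at least 20 against under 5, the dividing over other medians were 1.66 and 1.70 (S phase, control and ENZ) and 3.97 and 4.13 (G2/M). With other cells reweighted for depth, 55 genes were lower and the S phase medians were 1.20 and 1.34; with CPM averaged over cells, 1.54 and 1.64. At 10 CPM, 718 genes were higher and 456 lower in dividing cells, of 8602 compared, and at 1 CPM 994 and 986 of 13296. ENZ against control gave 51 higher and 90 lower of 8570, and 267 and 582 of 13477. The ENZ counts grew faster than the number of genes compared. Median-of-ratios scaling shifted all ENZ log2 ratios in dividing cells by 0.06, left 11 genes higher, and took the G2/M median from 0.04 to -0.026. Elsewhere the cause was not tested. Camk1d in ENZ dividing cells ranged from 1.25 to 1.49 and Cd74 from -1.48 to -1.86 (log2). Subtraction of free RNA, whose amount S100a9 helped to set, left S100a9 at 0 in ENZ, so that it had no value there. The doublet threshold of the ENZ library applied to both, chosen after seeing the data, marked 15 control and 19 ENZ dividing cells. Over all alternatives, moved values numbered 17 of the ENZ list medians (208 did not move), 77 of the dividing over other list medians (173 did not), 93 of the ENZ ratios of single genes (311 did not), 71 of their dividing over other ratios (129 did not) and 10 of the dividing shares of single libraries (8 did not). No paired analysis was possible because each treatment had 1 library. Single genes and lists under 5 CPM were not compared.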
